A study of Rattus norvegicus with 22 samples.

Results

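The 7 unstretched, untreated engineered cardiac tissues were taken from 22 tissues on arrays, chosen by their titles, and no treated tissue entered any comparison. Engineered cardiac tissue is living heart muscle built in culture, here from embryonic heart cells mixed with matrix and anchored at the ends. Here the cells came from the ventricles of Sprague Dawley rats at gestational day 14.5. About 200 µL of cells and matrix formed each construct, which stayed for 7 days in medium with 10% serum and 1% chicken embryo extract, with neither cyclic stretch nor the p38 inhibitor BIRB796. The labels call the replicates biological but tie none of them to a litter, dissection or culture, so the spread below is that between these samples and may be partly technical. The arrays fall into a pair of sets by scan session: replicates 4 to 7 (4 tissues) were scanned later and replicates 1 to 3 (3 tissues) earlier, on another scanner model and with another version of the scanner software. Tissues were homogenised whole, so fewer cells of a type and less RNA per cell cannot be told apart.

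The embryonic ventricle holds contracting cardiomyocytes together with fibroblasts, endothelium, epicardium, smooth muscle precursors and resident macrophages. Cardiomyocytes change isoforms as they mature. In rodents the ventricle moves after birth from beta myosin heavy chain (Myh7) to alpha (Myh6) and from slow skeletal troponin I (Tnni1) to cardiac troponin I (Tnni3), and the atrial light chains Myl7 and Myl4 give way to Myl2 and Myl3 in ventricular muscle. The natriuretic peptides Nppa and Nppb are made by embryonic ventricle and by muscle under load.

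Every level below comes from a 60-base probe, and probes bind with unequal strength, so a rank is a rank of signals and a difference between the probes of 2 genes says nothing exact about their RNA ratio; how that difference varies between tissues is free of this limit. The probes behind the 2 classic maturation pairs are shown because those pairs are described first. The Myh6 probe lies at chr15:33044576-33044983 of rat build rn4, minus strand, over 408 bases of genome and so across an intron. The Myh7 probe lies at chr15:33073880-33073939, minus strand, the Tnni3 probe at chr1:68030210-68030735, plus strand, over 526 bases, and the Tnni1 probe at chr13:48840073-48840132, plus strand. Each has at least 1 reading frame without a stop.
Myh6: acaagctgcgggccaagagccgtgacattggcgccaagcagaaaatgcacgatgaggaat
Myh7: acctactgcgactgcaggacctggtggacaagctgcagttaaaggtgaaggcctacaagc
Tnni3: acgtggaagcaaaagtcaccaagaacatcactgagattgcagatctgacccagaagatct
Tnni1: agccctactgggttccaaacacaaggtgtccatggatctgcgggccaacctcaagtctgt

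Signals are log2 values relative to each array's 75th percentile. Of 26401 genes with a probe, 18009 were well above background on all 7 arrays, 2166 on none, and 22248 (above background on at least 3 arrays) were ranked and tested. Spots well above background made up 77.4% to 83.1% on the later arrays and 86.1% to 90.3% on the earlier arrays. The median local background was 18.5 to 20.5 on the later arrays and 51 to 52 on the earlier arrays. The first principal component, 89.2% of the variance, separated the sets. Limma called 12312 of 22248 genes (55.3%) different between the sets at an adjusted p under 0.05, 13.0% higher and 42.3% lower on the later arrays, and the samples of the sets did not overlap for 60.4% of genes (16.5% with all later arrays above, 43.9% with all below). Of the tested genes, 1454 were well above background on no later array and entered through the earlier arrays alone. The median gene differed by -0.28, and by 0.60 with the array median as scale and 0.04 after quantile normalization, so counts of higher and lower genes depend on the scale. The set difference followed signal: with genes cut into 4 equal groups by mean signal, its median was -2.80 in the dimmest group, then -0.68, -0.03 and 0.19 in the brightest. Spiked-in control RNA, which is no tissue RNA, moved too, by -0.56 to -0.95 for its 7 brighter probes and by -1.61, -3.49 and -3.54 for the 3 dimmest. Each set lay in scan sessions of its own, so a difference between the tissues of the sets and one of scanning or hybridisation cannot be told apart.

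**Figure D1:**
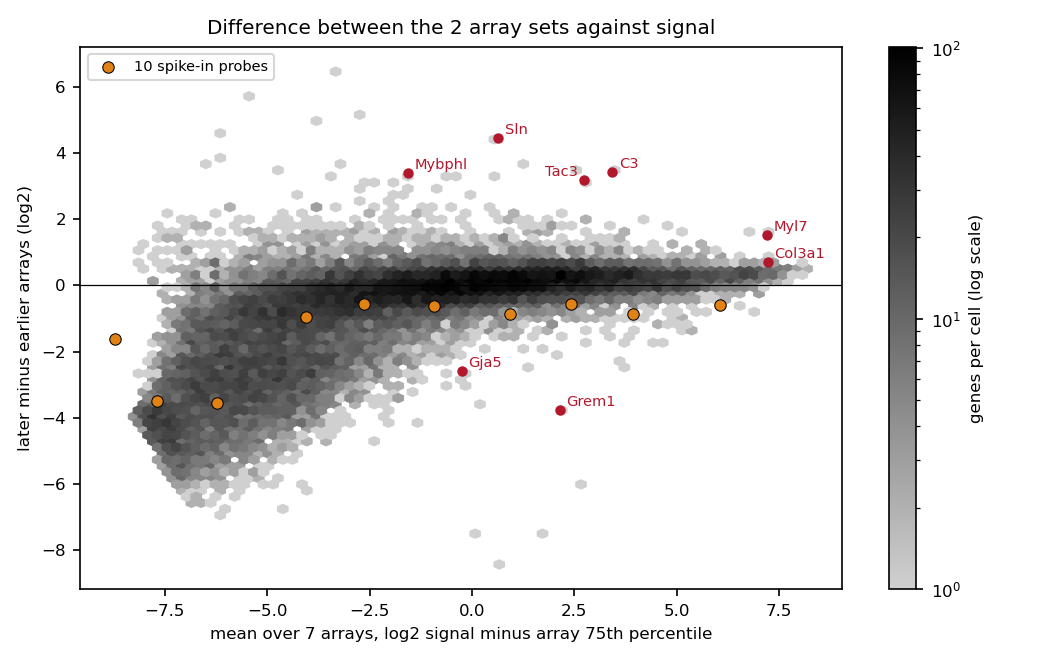
The difference between later and earlier arrays (log2, vertical) against mean signal (log2 relative to the array's 75th percentile, horizontal). Grey cells count the 22248 tested genes on a log scale, orange points are the 10 spike-in probes and red points are named genes. The cloud bends down at the dim end, where the dimmest spike-ins lie at -1.61, -3.49 and -3.54, and is flat among bright genes, from which Sln, C3, Tac3, Myl7, Gja5 and Grem1 stand apart.

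The brightest signals came from sarcomere, ribosome and matrix genes. Rplp0, a protein of the large ribosomal subunit, ranked first at 8.18 ± 0.35 (SD, n = 7), and its probe was among the 3 of the 100 brightest that saturated on at least 1 array. Actc1, cardiac alpha-actin, followed at 8.16 ± 0.41, cardiac troponin T (Tnnt2) at 8.08 ± 0.40, and Myh6 was sixth at 7.94 ± 0.36. The Actc1 probe was saturated on 2 of the later arrays, so its level there, and any difference taken from it, may be understated. Tnnt2 gave the brighter signal than Myh6 on all 7 arrays. Tnnt2 read 8.33, 8.12, 8.21 and 8.67 in replicates 4, 5, 6 and 7 on the later arrays, and 7.79, 7.99 and 7.43 in replicates 1, 2 and 3 on the earlier arrays. Myh6 read 8.13, 7.93, 8.06 and 8.47 in replicates 4 to 7, and 7.72, 7.95 and 7.31 in replicates 1 to 3. In both genes replicate 7 was the highest tissue and replicate 3 the lowest.

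Among the 100 brightest genes, 55 had a gene symbol and 27 carried ribosomal protein names. Of the listed markers, 5 cardiomyocyte and 5 fibroblast genes were in this group and no endothelial, macrophage, epicardial or smooth muscle marker was. Matrix genes were close behind the sarcomere: matrix Gla protein (Mgp), an inhibitor of calcification, read 7.70 ± 0.16, Sparc, a collagen-binding glycoprotein, 7.47 ± 0.22, and type III collagen (Col3a1) 7.23 ± 0.38 (SD, n = 7 each). Biglycan (Bgn), a small matrix proteoglycan, reached 7.86 ± 0.31. H19, an imprinted RNA of fetal tissue, stood at rank 40 with 7.30 ± 0.18. Ferritin light chain (Ftl1), which stores iron, read 7.72 ± 0.27, and cyclophilin A (Ppia), a protein-folding enzyme, 7.60 ± 0.29.

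Rank 9 belonged to the probe named for Stfa2, a stefin of white blood cells, at 7.74 ± 0.32 (SD, n = 7). Part of that probe is shown because its letters recur across the genome. Bases 16 to 45 of the probe follow, and the capitals mark a run of 20 whose reverse complement is in 104 of 33469 rat promoter windows of 300 bases (0.311%, RefSeq, assembly GRCr8, other genes' promoters only).
Stfa2 probe, bases 16 to 45: gggatTGGGGATTTAGCTCAGTGGTagagc
It was the only probe of the 100 brightest to share a run of 20 with at least 10 promoters of other genes, against 0.454% of all tested probes. RNA of Stfa2 and RNA of any other transcript that holds this run cannot be told apart here.

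Energy metabolism was bright as a group. All 33 respiratory chain genes passed the background filter, with a median percentile of 96.6, and 31 of them were above percentile 90. Glycolysis (22 genes) had a median percentile of 94.5 and fatty acid oxidation (21 of 22 genes passed the background filter) of 82.4. Genes of mitosis (23 genes, median percentile 72.9) and DNA replication (24 genes, 72.8) sat above the middle of all genes. Cdk1, the kinase that drives entry into mitosis, read 3.11, 3.099, 3.12 and 3.08 in replicates 4 to 7, and 3.37, 2.97 and 3.52 in replicates 1 to 3. Of the cardiac transcription factors (23 of 24 genes passed, median percentile 72.2) Gata4 read 2.58 ± 0.20 and serum response factor (Srf) 3.39 ± 0.34 (SD, n = 7 each).

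The labelled tissue was checked against its markers. All 23 cardiomyocyte markers with a probe were above background on all 7 arrays, with a median signal percentile of 98.0 and 16 of them above percentile 90. Fibroblast and matrix markers (20 of 20 passed, 18 on all arrays) had a median percentile of 89.1. Macrophage and leukocyte markers followed at 87.2 over the 19 of 22 that passed, smooth muscle and pericyte markers at 74.5 (15 of 15), epicardial and mesothelial markers at 57.3 (15 of 15) and endothelial and endocardial markers at 49.5 (15 of 16). The lists of other tissues were lower: hepatocyte 16.9 (10 of 12), lung and gut epithelium 20.9 (8 of 10), cartilage and valve 32.9 (9 of 9), neural and glial 39.8 (16 of 16), skeletal muscle 42.1 (11 of 15) and erythroid 43.0 (10 of 12). Not all of these lie outside the heart, since valve is part of it. Acta1, at percentile 83.5 in the skeletal muscle list, is also expressed by fetal rodent heart. Medians over genes that passed leave out the dimmest members.

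**Figure D2:**
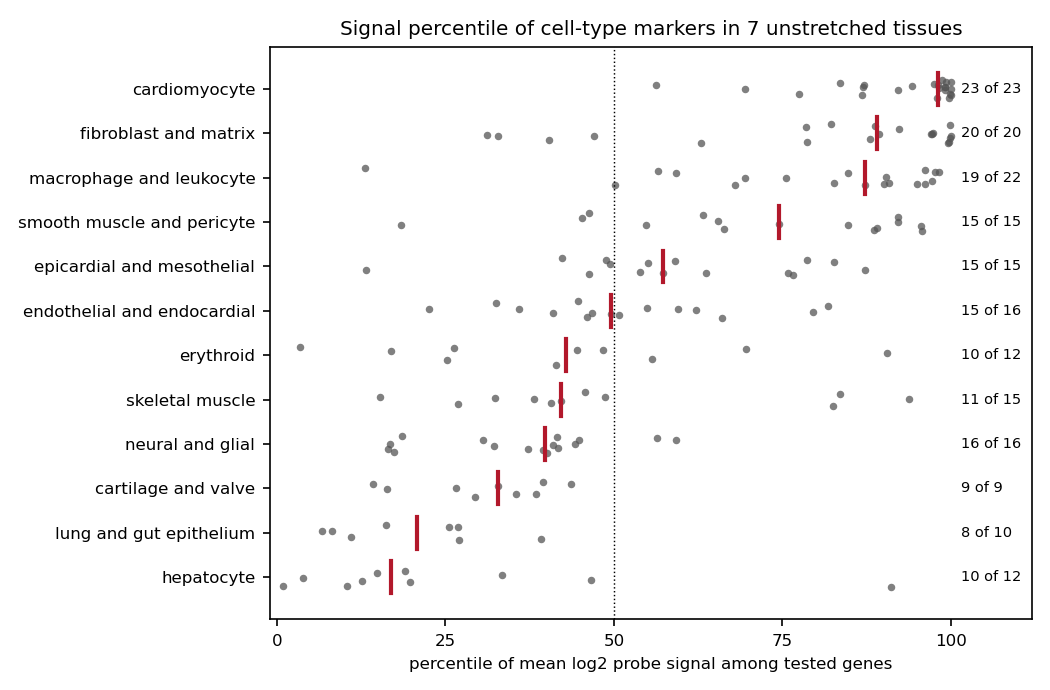
Percentile of the mean signal among the 22248 tested genes (horizontal) for the markers of each cell type and tissue (rows, brightest median on top). Grey points are genes, red bars are list medians, and the figures at the right give genes that passed the background filter of those with a probe. Cardiomyocyte markers have their median at 98.0, against 16.9 for hepatocyte markers, and the dotted line marks the median of all genes.

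Beyond the sarcomere, the defining genes of each cell type gave these levels. Col1a1, the main chain of type I collagen, read 7.01, 7.01 and 7.55 in replicates 5, 6 and 7, its spot on replicate 4 being left out for an outlier flag, and 6.92, 6.62 and 6.58 in replicates 1 to 3. Pecam1, an endothelial adhesion protein, read -0.80, -0.84, -0.996 and -0.53 in replicates 4 to 7, and -1.26, -1.82 and -0.67 in replicates 1 to 3. Cd68, a lysosomal protein of macrophages, read 2.57, 2.55, 2.88 and 1.64 in replicates 4 to 7, and 1.15, 0.74 and 2.26 in replicates 1 to 3. Col1a1 stood at percentile 99.6, Cd68 at 84.6 and Pecam1 at 59.6 of all signals.

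Some listed genes were well above background on no array: the T cell gene Cd3e, the B cell gene Ms4a1, the macrophage scavenger receptor Cd163, endothelial Sox17, hepatocyte albumin (Alb), the stem cell and epithelial factor Sox2, the myogenic factor Myf6, and the cytokines Il6 and Cxcl3. A probe at background does not show that its RNA is absent, since Gclm, Mef2a and Zfp36, which many cell types express, were also on no array. Of the erythroid list, alpha-globin (Hba-a1) read 0.09 ± 0.69 (SD, n = 7), near the 75th percentile of the arrays.

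Isoform differences were compared as the signal of one probe minus that of its partner on the same array. Myh6 minus Myh7 was 1.47, 0.84, 0.96 and 0.87 in replicates 4 to 7, and 0.73, 0.79 and 0.90 in replicates 1 to 3. Replicate 4 stood apart on the high side, and the other 6 tissues lay within 0.73 and 0.96. Tnni3 minus Tnni1 was -0.08, 0.02, -0.02 and 0.15 in replicates 4 to 7, and -0.31, 0.15 and -0.04 in replicates 1 to 3, so that the probes of the adult and the fetal isoform gave nearly equal signal in every tissue. Cardiac over skeletal alpha-actin (Actc1 minus Acta1) was 6.37 ± 0.21 with the saturation of Actc1 named above, and cardiac over fast skeletal calcium pump (Atp2a2 minus Atp2a1) was 8.21 ± 0.28 (SD, n = 7 each). Acta1 is also expressed by fetal rodent heart.

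The light chains split the sets. Myl2 minus Myl7, the ventricular over the atrial regulatory light chain, was -1.28, -1.38, -1.32 and -1.30 in replicates 4 to 7, and 0.32, 0.53 and -0.36 in replicates 1 to 3. No value of the later arrays reached the range of the earlier arrays, and the mean difference between the sets was -1.48. The atrial member carried it. Myl7 read 7.86, 7.83, 7.66 and 8.10 in replicates 4 to 7, against 6.23, 6.47 and 6.33 in replicates 1 to 3, higher on the later arrays by 1.52 ± 0.13 (SE, limma adjusted p = 8.4e-05). Myl2 differed by 0.03 ± 0.24 (SE, limma adjusted p = 0.92). Myl3 minus Myl4, the essential light chains, went the same way: 0.06, 0.23, 0.10 and -0.14 in replicates 4 to 7, and 0.76, 0.95 and 0.86 in replicates 1 to 3. Myl4 itself was higher on the later arrays by 0.86 ± 0.28 (SE, limma adjusted p = 0.037), a call lost on leaving out any tissue but replicate 2, with a difference of 0.53 and a limma adjusted p of 0.053 without replicate 3, and an adjusted p of 0.12 after quantile normalization.

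Other atrial genes did not all follow Myl7. Sarcolipin (Sln), a small inhibitor of the calcium pump found mainly in rodent atria, read 2.60, 2.54, 2.40 and 2.67 in replicates 4 to 7, against -1.46, -1.62 and -2.63 in replicates 1 to 3, a difference of 4.45 ± 0.28 (SE, limma adjusted p = 3.3e-05). Mybphl, a myosin-binding protein of atrial muscle, read -0.03, -0.12, -0.25 and 0.04 in replicates 4 to 7, against -3.33, -3.49 and -3.70 in replicates 1 to 3, a difference of 3.42 ± 0.13 (SE, limma adjusted p = 1.4e-05). Both moved up by far more than the median of genes of their brightness. Connexin 40 (Gja5), a gap junction protein of atria and conduction fibres, went the other way: -1.38, -1.40, -1.43 and -1.27 in replicates 4 to 7, against 1.31, 1.08 and 1.30 in replicates 1 to 3, lower by 2.60 ± 0.10 on the later arrays (SE, limma adjusted p = 1.4e-05). Nppa, atrial natriuretic peptide, read 0.85, 1.12, 1.07 and 1.78 in replicates 4 to 7, and 2.29, 3.92 and 1.55 in replicates 1 to 3, a difference of -1.38 ± 0.54 that did not pass (SE, limma adjusted p = 0.065). It passed without replicate 3 (-1.90, limma adjusted p = 0.019) and with normexp background correction (limma adjusted p = 0.037). Its partner Nppb read 0.07, 0.82, 0.50 and 1.96 in replicates 4 to 7, and 2.73, 4.07 and 1.43 in replicates 1 to 3. Within each set the tissue with the brightest cardiomyocyte list, replicate 7 or replicate 2, had the highest Nppa, a member of that list, and the highest Nppb. Nppb was lower on the later arrays by 1.90 ± 0.68 (SE, limma adjusted p = 0.049), a call lost without any of replicates 1, 2, 4, 5 or 6, with a difference of -1.24 and a limma adjusted p of 0.14 without replicate 2, and 0.16 with the array median as scale.

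Over the 17 pairs with probes for both members, the sets did not overlap in 6, of which 2 were higher and 4 lower on the later arrays. This is no more than the 60.4% of single genes whose sets did not overlap. Besides the light chains, the non-overlapping pairs were Actc1 minus Acta2 (6.63 ± 0.21 on later arrays, where Actc1 was saturated on 2, and 5.56 ± 0.29 on earlier arrays), Gja1 minus Gja5 (1.73 ± 0.23 and 0.39 ± 0.42), Atp2a2 minus Atp2a1 (8.02 ± 0.13 and 8.45 ± 0.24) and Slc2a4 minus Slc2a1 (-3.55 ± 0.05 and -2.61 ± 0.28; SD, n = 4 and 3 throughout). An exact permutation test of 3 tissues against 4 cannot give a two-sided p below 0.0571, and the lowest value adjusted over the 17 pairs was 0.162. The test therefore could not call any pair in this design, and the values stand as a description.

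**Figure D3:**
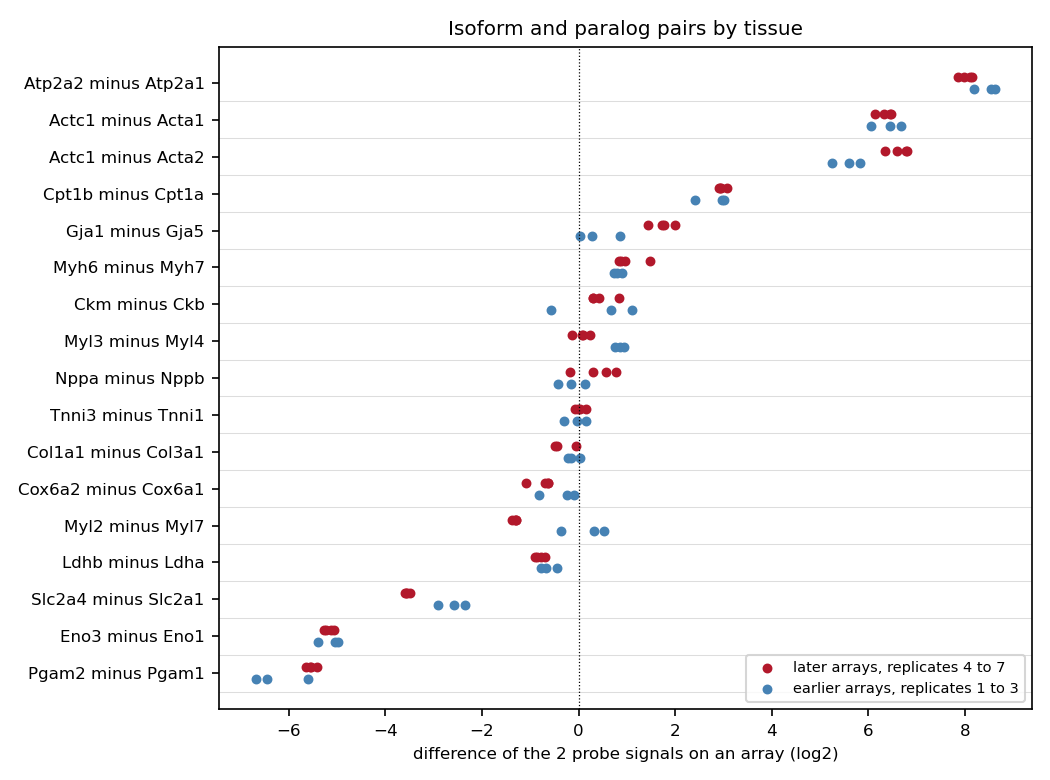
Difference of the signals of 2 probes on the same array (log2, horizontal) for 17 isoform or paralog pairs (rows). Red points, upper in each row, are the later arrays (replicates 4 to 7) and blue points the earlier arrays (replicates 1 to 3). Myl2 minus Myl7 is tight at -1.38 to -1.28 on the later arrays and spans -0.36 to 0.53 on the earlier ones, while Tnni3 minus Tnni1 stays near 0 in all.

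Muscle and general forms of metabolic enzymes varied to different degrees. Eno3 minus Eno1, the muscle over the general enolase, was -5.16 ± 0.15 and Ldhb minus Ldha, the heart over the muscle lactate dehydrogenase subunit, was -0.73 ± 0.15 (SD, n = 7 each). The creatine kinases varied more: Ckm minus Ckb, muscle over brain form, was 0.30, 0.43, 0.30 and 0.84 in replicates 4 to 7, and 0.67, 1.11 and -0.58 in replicates 1 to 3. In replicate 3 the brain form gave the brighter probe signal, and in the other 6 tissues the muscle form did. Cpt1b minus Cpt1a, the muscle over the liver carnitine palmitoyltransferase of mitochondrial fat import, was 2.90, 2.95, 3.08 and 2.93 in replicates 4 to 7, and 2.97, 3.00 and 2.42 in replicates 1 to 3, again lowest in replicate 3. With the mean over a gene's probes in place of the brightest probe, the mean of Cpt1b minus Cpt1a was -0.38 and that of Eno3 minus Eno1 was -2.64, so neither level holds across probes.

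Spread between tissues was small for most genes. The median SD within a set was 0.174 over the later arrays and 0.241 over the earlier arrays. Both medians rested on 1 tissue each: without replicate 7 the later value was 0.111, and without replicate 3 the earlier value was 0.134. Spiked-in control RNA varied within sets too. Its brightest probe read 5.88, 5.60, 5.18 and 6.57 in replicates 4 to 7, and 6.43, 6.46 and 6.28 in replicates 1 to 3. Where a probe had several spots on an array, their median SD was 0.0602 to 0.0761. Replicates 5 and 6, which shared a slide, differed by 1.15 times the spread expected from such spots, replicates 4 and 5 by 1.24 times, and every other pair within a set by 1.63 to 3.93 times. Replicate 3 departed by over 1 log2 unit from the mean of its set for 9.45% of genes, against 2.68% to 4.93% in the other tissues.

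Ribosomal and replication genes varied little. The pooled SD within sets had a median of 0.108 over 46 cytosolic ribosomal protein genes and 0.118 over 24 DNA replication genes, against 0.235 over all genes and 0.139 in the brightest of the 4 groups by signal. Other lists of general cell functions were not below that group: reference genes had 0.154, the respiratory chain 0.184 and glycolysis 0.239. Among genes often used as references, Rpl13a had a pooled SD of 0.0850, Rps18 of 0.0996 and the basal transcription factor Tbp of 0.102, all 3 chosen after their values were seen. Gapdh, the glycolytic enzyme most used for this purpose, had 0.325 and the transferrin receptor Tfrc 0.334, above the median of all genes. This spread lay on the earlier arrays: the SD of Gapdh was 0.071 on the later and 0.507 on the earlier arrays. That of Tfrc was 0.087 and 0.518. Both genes were lowest in replicate 3, at 5.19 and 2.21. Without replicate 3 the median was 0.096 over reference genes and 0.147 over glycolysis, against 0.188 over all genes.

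**Figure D4:**
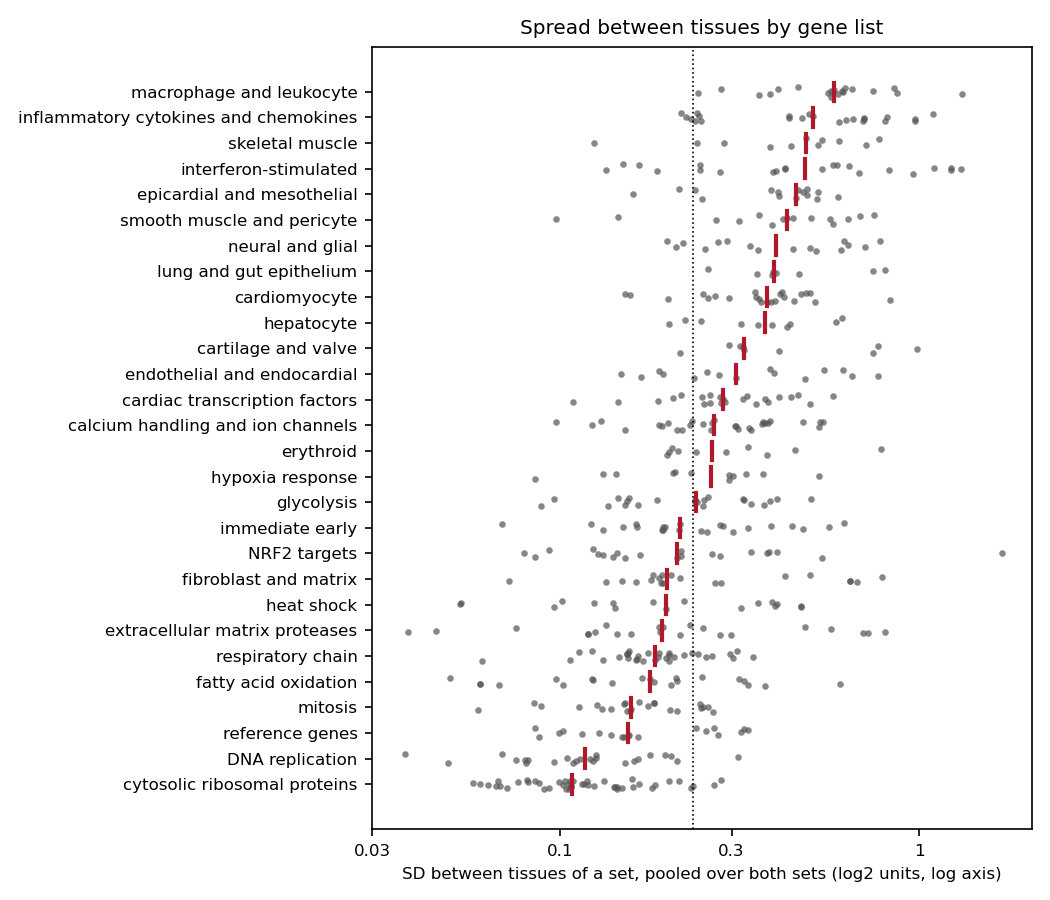
SD between tissues within a set, pooled over both sets (log2 units on a log axis), for the genes of each list (rows, widest median on top). Grey points are genes, red bars are list medians and the dotted line is the median of all genes, 0.235. Macrophage, cytokine and interferon lists lie right of the line and ribosomal and DNA replication lists left of it.

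Immune genes were among the lists with wide spread. Macrophage and leukocyte markers had a median pooled SD of 0.579, cytokines and chemokines 0.505 and interferon-stimulated genes 0.479, and 10 of 23 cytokine genes, 8 of 22 interferon-stimulated genes and 7 of 19 macrophage genes were above percentile 90 of all genes in spread. Skeletal muscle markers, at 0.483, and epicardial markers, at 0.454, were close to them. Without replicate 2 the macrophage median was 0.407. Within sets the macrophage genes ordered the tissues alike. The mean of the macrophage list was 2.19, 2.12, 2.33 and 1.46 in replicates 4 to 7, and 1.48, 0.66 and 1.92 in replicates 1 to 3. Replicate 7 was the lowest of its set for 17 of the 18 genes measured on every array, against 31.7% of all genes, and replicate 2 the lowest of its set for 17 of 18, against 24.4% of all genes. Lyz2, the lysozyme of macrophages, read 6.42, 6.35, 6.58 and 5.54 in replicates 4 to 7, and 5.58, 3.56 and 5.74 in replicates 1 to 3. Spp1 (osteopontin), a cytokine that macrophages secrete and which was picked after its values were seen, read 4.52, 4.27, 4.56 and 2.41 in replicates 4 to 7, and 3.90, 2.97 and 4.90 in replicates 1 to 3. In both genes the lowest tissue of each set was again replicate 7 or replicate 2.

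Cardiomyocyte genes ranked the tissues the other way. Their list mean was 4.70, 4.74, 4.71 and 5.07 in replicates 4 to 7, and 4.66, 5.02 and 4.01 in replicates 1 to 3. Replicate 7 was the highest of its set for 21 of 23 genes, against 36.3% of all genes, replicate 2 the highest of its set for 22 of 23, against 42.6%, and replicate 3 the lowest for 22 of 23, against 50.6%. Cardiomyocyte mean minus macrophage mean on the same array, which no scaling of the array can move, was 2.51, 2.63, 2.38 and 3.61 in replicates 4 to 7, and 3.18, 4.36 and 2.09 in replicates 1 to 3. It was thus highest in replicates 7 and 2. The cardiomyocyte list's median pooled SD was 0.377, and 0.21 without replicate 3. The part of cell composition in this spread was not tested.

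**Figure D5:**
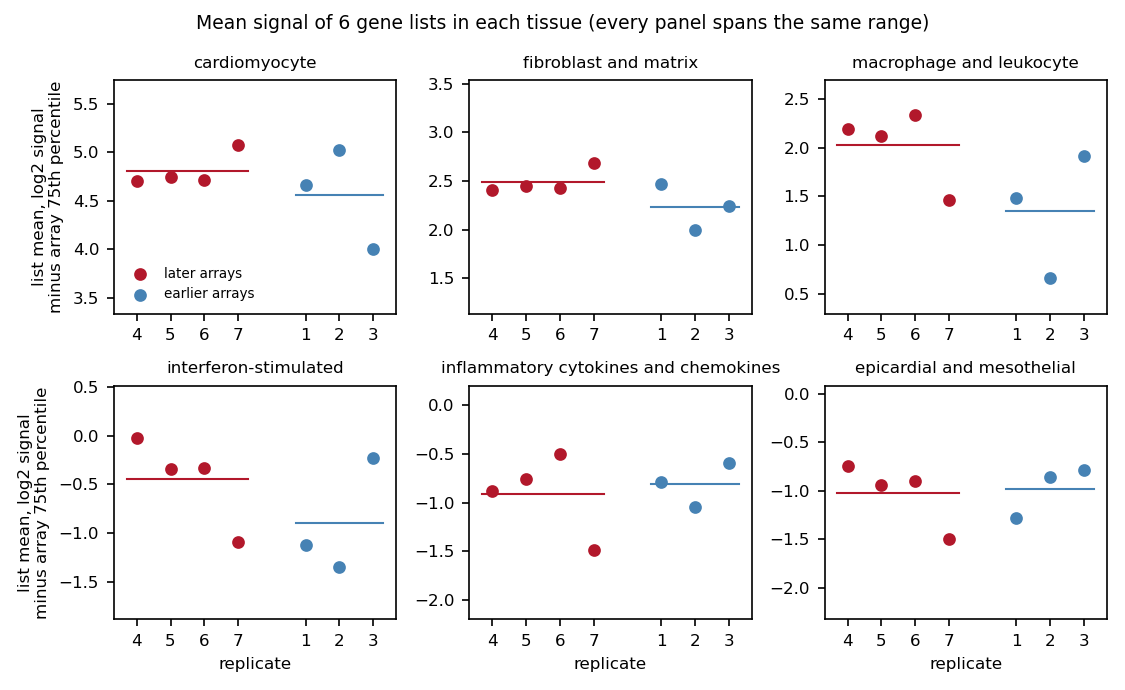
Mean signal of gene lists (log2 relative to the array's 75th percentile) in each tissue, with later arrays (replicates 4 to 7, red) left of earlier arrays (replicates 1 to 3, blue) and a line at each set's mean. Every panel spans the same range. Replicate 7 is the lowest and replicate 3 the highest of its set for macrophage and interferon lists, and replicate 3 is lowest for cardiomyocyte genes.

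Interferon-stimulated genes had replicates 4 and 3 at the top of their sets, where the macrophage list had replicates 6 and 3. Mx1 and Isg15 were picked after their values were seen. Mx1, an antiviral GTPase, read 0.60, -0.09, -0.16 and -1.37 in replicates 4 to 7, and -1.63, -2.15 and 0.94 in replicates 1 to 3. Isg15, a ubiquitin-like protein induced by interferon, read 0.39, -0.16, -0.10 and -1.61 in replicates 4 to 7, and -1.31, -1.41 and 0.52 in replicates 1 to 3. Replicate 4 was the highest of its set for 14 of 22 genes, against 33.9% of all genes, and replicate 3 for 20 of 22, against 26.7%. Interferon mean minus macrophage mean was -2.22, -2.46, -2.66 and -2.56 in replicates 4 to 7, and -2.60, -2.01 and -2.15 in replicates 1 to 3, a narrower range than either list alone. Within the later arrays cytokines differed from the interferon list and had replicate 6 on top, like the macrophage list. Replicate 6 was the highest for 19 of 23 cytokine genes, against 19.7% of all genes, and replicate 7 the lowest for 18. Il1a, an alarm cytokine, read -1.67, -1.36, -0.91 and -3.83 in replicates 4 to 7, and -2.11, -2.52 and -1.21 in replicates 1 to 3.

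The 10 named genes with the widest spread repeated this picture in part. Trem3, a receptor of myeloid cells in rodents, read -1.47, -1.35, -0.96 and -5.34 in replicates 4 to 7, and -3.02, -3.67 and -2.99 in replicates 1 to 3. Slpi, an inhibitor of white cell proteases, read -1.94, -0.78, -0.16 and -4.03 in replicates 4 to 7, and -1.50, -1.90 and -2.58 in replicates 1 to 3. Acod1, the enzyme that makes itaconate in activated macrophages, read -3.54, -2.71, -2.14 and -5.65 in replicates 4 to 7, and -3.16, -3.62 and -5.10 in replicates 1 to 3. All 3 were lowest of the later arrays in replicate 7. Lyve1, a hyaluronan receptor of lymphatic endothelium and of tissue macrophages, read -1.56, -1.40, -1.17 and -2.14 in replicates 4 to 7, and -0.04, -2.43 and 1.58 in replicates 1 to 3, highest in replicate 3. Of the 100 most variable genes, replicate 7 was the lowest of the later arrays in 54, against 31.7% of all genes. Replicate 4 was the highest of the later arrays in 50, against 33.9% of all genes. The interferon list held 6 of the 100, and dim genes such as Vom2r72 and Foxi3 also had replicate 4 highest. The 100 were chosen for spread in these same values, so these counts are a description. Others among the 10 were dim genes with other patterns. Srsf12 differed in 1 tissue, at -1.44 in replicate 1 and at or below -5.34 in the other 6. Vom2r72 and Foxi3 read -3.06 and -2.55 in replicate 4, near their levels in replicates 1 to 3, and below -5.9 in replicates 5 to 7. Gsdmdl1 read -0.70, -3.93 and -5.57 in replicates 1 to 3. Pla2g2a, at percentile 71.9, was not dim.

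Some bright genes differed between the sets well beyond the median shift, of which Tac3, Grem1 and Plvap were picked after their values were seen. Complement genes were among those of largest rise on the later arrays. C3, the central complement protein, read 5.10, 5.11, 5.15 and 4.25 in replicates 4 to 7, against 2.12, 0.36 and 1.91 in replicates 1 to 3, a difference of 3.44 ± 0.46 (SE, limma adjusted p = 0.00064). C4a, its partner in the classical pathway, was higher by 3.70 ± 0.21 (adjusted p = 2.7e-05) and Cfd, factor D of the alternative pathway, by 3.38 ± 0.36 (adjusted p = 0.00023), both by limma with SE. The sets did not overlap in any of the 3, beside 16.5% of all genes with every later array above. In C3 and Cfd replicate 7 was the lowest later tissue and replicate 2 the lowest earlier one. A2m, a protease inhibitor of plasma, was higher by 3.34 ± 0.23 (adjusted p = 4.1e-05). C3, C4a, Cfd and A2m were named for the size of this same difference, so their p values and lack of overlap are a description. Tac3, a tachykinin, read 4.25, 4.19, 4.06 and 3.94 in replicates 4 to 7, against 0.96, 1.06 and 0.74 in replicates 1 to 3 (difference 3.19 ± 0.13, SE, limma adjusted p = 1.4e-05).

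Going down, Grem1, a secreted antagonist of bone morphogenetic proteins, read 0.27, 0.54, 0.52 and 0.85 in replicates 4 to 7, against 4.42, 4.11 and 4.38 in replicates 1 to 3 (difference -3.76 ± 0.16, SE, limma adjusted p = 1.5e-05). Plvap, a protein of fenestrated endothelium, read 0.82, 0.77, 0.69 and 0.74 in replicates 4 to 7, against 2.48, 2.24 and 1.98 in replicates 1 to 3 (difference -1.48 ± 0.13, SE, limma adjusted p = 0.00010). Of the 15 listed endothelial genes tested, 6 were lower and 0 higher on the later arrays, beside 42.3% lower among all genes. That share includes the 1454 genes that entered through the earlier arrays alone. With probes above background on all 7 arrays, which all 15 genes had, 5889 of 18028 genes were lower. The direction of the endothelial genes turned with the scale: 3 were higher and 4 lower after quantile normalization, and 7 higher and 3 lower with the array median. Over all 22248 genes these settings gave 5611 higher and 5213 lower, and 12315 higher and 5883 lower. Von Willebrand factor (Vwf), a clotting protein of endothelium, was among the 6 and fell by 1.79 ± 0.12 (SE, limma adjusted p = 4.1e-05).

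The lists read against those backgrounds as follows. List counts with the array median stand beside 12315 of all 22248 genes higher and 5883 lower. Those after quantile normalization stand beside 5611 higher and 5213 lower. Macrophage and leukocyte genes had 8 of 19 higher on the later arrays, beside 13.0% of all genes, and 2 lower, and with the array median 14 higher and 1 lower. Of the chains of complement C1q, which macrophages make, C1qa was higher by 1.57 ± 0.20 (SE, limma adjusted p = 0.00050) and C1qc by 1.73 ± 0.27 (adjusted p = 0.0015). Interferon-stimulated genes had 8 of 22 higher and 0 lower, a count that ran between 3 (without replicate 2, 4, 5 or 6) and 13 (without replicate 3) and was 14 with the array median, and the immunoproteasome subunit Psmb8 was higher by 1.46 ± 0.27 (SE, limma adjusted p = 0.0033). Ribosomal protein genes had 24 of 46 higher and 1 lower, but 4 higher and 3 lower after quantile normalization and 45 higher with the array median. Cardiomyocyte genes had 4 of 23 higher and 1 lower, and the count of higher genes ran from 1 (without replicate 1, 3, 4 or 7) to 7 (without replicate 2), was 1 after quantile normalization and was 20 with the array median. Fibroblast and matrix genes had 4 of 20 higher and 2 lower, and 17 higher with the array median. Of the higher ones, Col6a1, a chain of type VI collagen, by 1.30 ± 0.12 (SE, limma adjusted p = 0.00014) and Col3a1 by 0.71 ± 0.09 (adjusted p = 0.00057) had the smallest p. The 2 lower ones were Thy1, by 2.29 ± 0.42 (SE, limma adjusted p = 0.0032), and S100a4, by 0.44 ± 0.12 (adjusted p = 0.017). In the epicardial list 3 of 15 were higher and 3 lower (9 and 0 with the array median), and the median difference was 0.09. Among the higher ones was Wt1, the transcription factor of epicardium, by 0.95 ± 0.13 (SE, limma adjusted p = 0.00073). The 3 lower ones are not named here, so Wt1 does not stand for the list. The dim markers in the lists of other tissues are given no direction, since it turned with the scale for some lists. Lung and gut epithelium had 0 of 8 higher and 6 lower, but 4 higher and 1 lower after quantile normalization. Alpha-fetoprotein (Afp), which the fetal liver and yolk sac make, was well above background on 0 of 4 later and all 3 earlier arrays, as were the hepatocyte genes Apob and Fga. These 3 passed the background filter through the earlier arrays alone, so their difference is no test and none is given.

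The widest differences among probes with a mean above the arrays' 75th percentile came from 4 probes without a gene name, singled out after their values were seen. All 4 hold the same run of 18 letters, CATTAAAATAAAACAAGC, which 7 of the 30367 probes hold (0.0231%) and none holds as its reverse complement. One of the 7 is a probe at the 3′ end of Rpl19, a protein of the large ribosomal subunit, and the others map elsewhere in the genome. The 30 bases around the run are shown for each, with the run in capitals, because the probes differ in the bases after it. Counted from 1 at the first base after the run, with the Rpl19 probe's base given first, the 4 unnamed probes have C4T in common. The Rpl19 probe (chr10:86792067-86792126, plus strand, rn4) and the probe on chromosome 2 (chr2:211322674-211322733, plus strand) do not differ in the 6 bases compared. The probe on chromosome 9 (chr9:104270477-104270536, plus strand) has C4A, G5A and T6A.
A_64_P094980 (chrX:93594337-93594396, minus strand, C4T): atcagcCATTAAAATAAAACAAGCctttgt
A_64_P126595 (chr6:145823363-145823422, plus strand, C4T): atcagtCATTAAAATAAAACAAGCctttgt
A_64_P084268 (chrX:93201383-93201442, minus strand, C1T and C4T): atcagcCATTAAAATAAAACAAGCttttgt
A_64_P151473 (chr5:17190300-17190359, minus strand, C4T): atcaatCATTAAAATAAAACAAGCctttgt
A_64_P073048 (chromosome 9): atcagtCATTAAAATAAAACAAGCcttaaa
A_64_P118997 (chromosome 2): atcagaCATTAAAATAAAACAAGCcttcgt
A_64_P029701 (Rpl19): atcagtCATTAAAATAAAACAAGCcttcgt

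Probe A_64_P094980 read -3.04, -3.09, -3.12 and -2.87 in replicates 4 to 7, against 5.36, 5.25 and 5.61 in replicates 1 to 3, a difference of -8.44 (limma adjusted p = 9.9e-07). A_64_P126595 differed by -7.62 (adjusted p = 1.2e-05), A_64_P084268 by -7.40 (adjusted p = 1.1e-06) and A_64_P151473 by -6.07 (adjusted p = 2.4e-06), all by limma. Each was 67.1 to 347 times brighter on the earlier arrays, and no value of one set came near the other. The Rpl19 3′ probe went the other way: it read 7.49, 7.24, 7.26 and 7.58 in replicates 4 to 7, against 5.51, 5.30 and 5.71 in replicates 1 to 3, a difference of 1.89 that was not tested because the gene is represented by its brighter probe. That other Rpl19 probe, A_64_P128938, differed by 0.31 and did not pass (limma adjusted p = 0.072). It depended on the setting: adjusted p = 0.040 with normexp background correction, a difference of 1.19 with the array median (adjusted p = 7.2e-05), and 1.098 with the mean over Rpl19 probes (adjusted p = 0.00020), all by limma. A_64_P073048 differed by -2.20 (limma adjusted p = 0.00014). A_64_P118997, which has the Rpl19 letters after the run, read 4.77 ± 0.05 on the later arrays and 4.29 ± 0.47 on the earlier arrays (SD, n = 4 and 3; limma adjusted p = 0.090). Which transcripts bound these probes in each set cannot be told apart from the arrays.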

How the data were processed

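Total RNA of 22 tissues was hybridised to 1-colour Agilent rat arrays, 1 tissue per array, from 200 ng of RNA, per the labels' protocols, and the 7 control arrays were used. The deposited scanner files hold spot intensity, background-subtracted within each array (Feature Extraction 11.0.1.1 for the later set, 10.7.1.1 for the earlier), per the file headers. A deposited table of log2 values for 27873 probes tracked the scanner values with a slope of 1, its baseline unknown (medians -0.11 to 0.39), and served as an alternative. Spots with an outlier flag were dropped, spots of a probe averaged on the log2 scale, and each array's 75th percentile subtracted. A gene was represented by its brightest probe among those above background on at least 3 arrays. Names came from RefSeq (assembly GRCr8): 18498 of 30367 probes matched by accession, 2181 by symbol, 589 by synonym, and 9099 kept the file's name. Probe sequences and rn4 positions are those of the array design. Set differences are later minus earlier, by limma 3.58.1 (R 4.3.3), two-sided, with Benjamini-Hochberg adjustment over 22248 genes. The fits were tested on simulated data. The number of arrays limits precision.

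The members and gene lists were chosen with earlier results of these data known. Named genes are the 30 brightest with a symbol, every gene of the isoform pairs (1 pair is not reported here), 6 markers given with the tissue, the 10 most variable and the 10 of largest set difference each way among genes above background on all 7 arrays, the 2 brightest, most variable and most clearly called each way in each list, and listed markers above background on no array. Genes outside this rule are said to be picked after their values were seen, as were the 4 unnamed probes, Rpl19 and Mybphl's grouping with atrial genes. Alternatives were scaling by the array median, quantile normalization, normexp with an offset of 50 (on median spot signals in place of the means that were planned), filters on dim probes, the mean over probes, the deposited table, averaged replicates (5 and 6, 4 and 5) and leaving out each tissue.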

Additional observations from a re-analysis of the deposited data

Results flagged for a closer look

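Of 89 values looked at over the 7 tissues, 5 had a tissue standing apart from the rest by Dixon's criterion. The criterion takes the 7 tissues as 1 group, although the sets differ. Srsf12 was looked at because its spread was wide. The 5 are therefore set against no chance rate. The cardiomyocyte list mean was 4.01 in replicate 3, the lowest, with the next tissue at 4.66. The glycolysis list mean was 2.93 in replicate 3, the next being 3.41. Cpt1b minus Cpt1a was 2.42 in replicate 3, the next being 2.90. Myh6 minus Myh7 was 1.47 in replicate 4, the highest, the next being 0.96. Srsf12, a splicing factor, read -1.44 in replicate 1, the next being -5.34.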

How the results depend on the processing

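The number of genes called between the sets ran from 10347 to 12945 on leaving out a tissue (higher 1941 to 3176, lower 8406 to 9769) and was 2874 among genes above the arrays' 75th percentile alone, an alternative added after the data were seen, with 681 lower. The direction depended on scaling: 12315 genes were higher and 5883 lower with the array median, under which the median gene differed by 0.60 in place of -0.28, and 5611 and 5213 with quantile normalization. With probes above background on all 7 arrays 5889 were lower. The median SD ran from 0.111 to 0.194 over the later arrays and from 0.134 to 0.249 over the earlier arrays when a tissue was left out, and was 0.1003 and 0.156 among bright genes. Quantile normalization moved the set difference to -0.39 for Actc1 minus Acta1, 0.75 for Actc1 minus Acta2, -1.41 for Atp2a2 minus Atp2a1 and -0.12 for Cpt1b minus Cpt1a. Normexp moved levels to 7.70 for Atp2a2 minus Atp2a1, -5.43 for Eno3 minus Eno1 and 2.59 for Cpt1b minus Cpt1a. The mean over probes gave 7.3995 for Atp2a2 minus Atp2a1, -2.64 for Eno3 minus Eno1 (set difference 0.35), -0.38 for Cpt1b minus Cpt1a and -0.66 for Col1a1 minus Col3a1 (set difference -0.45). The cause was not tested. Among the genes followed singly, a call was lost in 18 combinations of gene and alternative and gained in 5, and the Rpl19 coding probe's difference, 0.31, became -0.0021 after quantile normalization. Slide as a random block could not be fitted, since 1 slide alone held more than 1 of the 7 arrays. No paired analysis was possible because the sets share no replicate number and untreated tissues alone were compared. Signal over background limits the dim genes, and 2971 genes with several probes showed a median gap of 1.92 between brightest and dimmest probe.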
